A study of Caenorhabditis elegans with 6 samples.

Results

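The UDP-glucuronosyltransferase family of Caenorhabditis elegans was taken as every gene that the deposited tables name ugt followed by a number, which gave 65 of 46245 listed genes. RNA was sequenced from whole worms grown at 20 °C to late L4, the last larval stage, with 3 libraries for each of 2 strains. Both strains were mutant for eat-2, allele ad465, and for acs-20, allele tm3232. Strain DCL289, here the ptr-8 strain, had the allele ptr-8(mkc18) in addition, and DCL33, without it, is called the reference strain. eat-2 encodes a nicotinic receptor subunit of the pharynx whose mutants feed slowly, acs-20 an acyl-CoA synthetase and ptr-8 a patched-related membrane protein. Each strain is 1 line, and worms without the eat-2 and acs-20 mutations were not analysed here. Nothing in the labels states that the replicates were grown apart, so the p-values reflect library-to-library spread that may be purely technical.

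UDP-glucuronosyltransferases are enzymes of the endoplasmic reticulum membrane that transfer a sugar from a UDP-sugar onto small lipophilic molecules, which makes these more soluble and easier to excrete. They act in the conjugation step of detoxification, after oxidation by enzymes such as cytochromes P450, and on endogenous compounds such as steroids and fatty acids. In worms, where the family is large, glucose conjugates of foreign compounds are well known, and the intestine is a main site of detoxification. The substrates of the single worm enzymes are mostly not known, so members are described here by level, by response and by place in the genome.

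Levels are given as FPKM, fragments per length of transcript and per mapped fragments of the library, divided by a scaling factor for each library (0.869 to 1.33). FPKM is scaled per length, so levels of different genes can be set side by side. The number of genes at an FPKM of 1 or more was 14883 in the library with fewest and 15461 in that with most. Differences are the ptr-8 strain minus the reference strain on log2(scaled FPKM + 1), a scale that understates the change of low genes, and adjusted p-values are from limma with Benjamini-Hochberg adjustment over all 15205 genes tested. A gene was called at an adjusted p under 0.05. The ptr-8 transcript itself fell from 21.8 ± 3.23 to 5.12 ± 0.614 (mean ± SD, n = 3 libraries per strain, adjusted p = 0.00542).

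Members differed widely in level. In all 6 libraries 48 members reached a scaled FPKM of 1, 30 reached 10 and 1 reached 100, while 7 stayed under 1 in every library. The most abundant member was ugt-22 (chromosome IV), at 181, 174 and 155 in the reference libraries and 222, 252 and 216 in the ptr-8 libraries. The next in the reference strain were ugt-62 at 123 ± 45.9, ugt-16 at 93.3 ± 8.29, ugt-47 at 91.5 ± 19.8 and ugt-44 at 80.6 ± 13.6, and the ranges of these libraries overlapped from each gene to the next. In the ptr-8 strain ugt-47 at 123 ± 7.75 and ugt-62 at 85.3 ± 6.505 followed ugt-22, while ugt-16 stood at rank 14 and ugt-44 at rank 27 of 65. The 10 members of highest mean level (ugt-22, ugt-47, ugt-62, ugt-16, ugt-50, ugt-17, ugt-41, ugt-1, ugt-23 and ugt-44) held 48.8% to 53.4% of the family's summed FPKM in each library. At the other end ugt-35 did not exceed a mean of 0.0390 in either strain and is listed at 0 in 1 library of each.

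**Figure D1:**
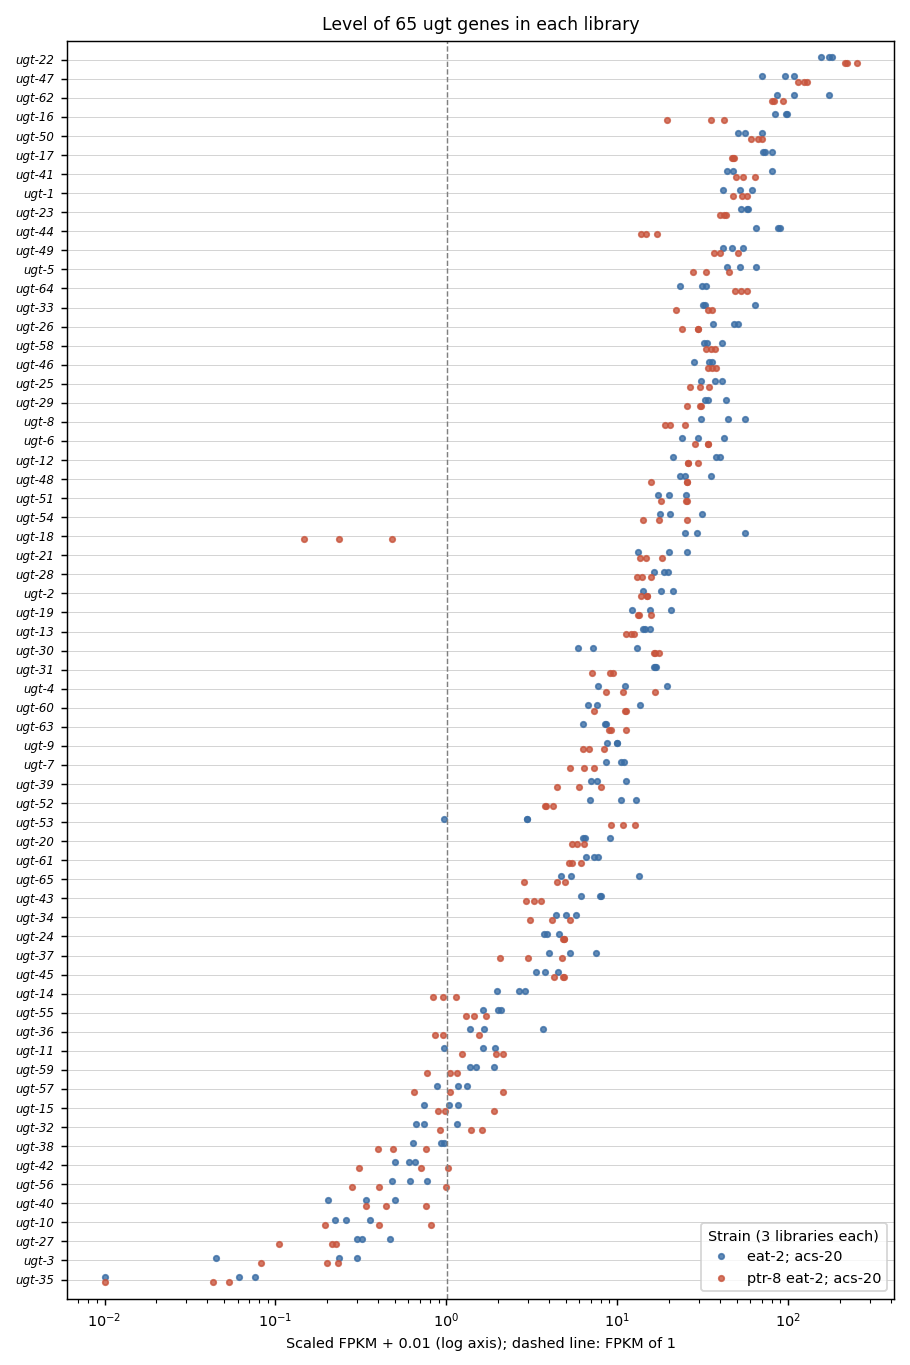
Scaled FPKM (plus 0.01, log axis) of the 65 ugt genes in each of the 6 libraries, ordered by mean level, with blue points for eat-2; acs-20 and red points for ptr-8 eat-2; acs-20. ugt-18 is the member whose strains lie farthest apart, with reference libraries between 24.9 and 55.8 and ptr-8 libraries between 0.136 and 0.469.

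Of the 65 members, 57 reached a scaled FPKM of 1 in at least 3 libraries and were tested, and 8 (ugt-3, ugt-10, ugt-27, ugt-35, ugt-38, ugt-40, ugt-42 and ugt-56) were not. Of the 57, 5 fell in the ptr-8 strain (ugt-18, ugt-44, ugt-17, ugt-31 and ugt-43) and 2 rose (ugt-53 and ugt-64). These 7 are 12.3% of the tested members, and the share called among all tested genes was 2.29%. By direction, the family had 8.77% called lower against 1.94% of all tested genes, and 3.51% called higher against 0.349%. Over all genes that was 295 lower and 53 higher, and on FPKM without the scaling 178 lower and 66 higher, where the family had 3 lower and 1 higher. Libraries of the 2 strains did not overlap, with the ptr-8 strain lower, for 18 members (31.6%) against 14.1% of all genes. They did not overlap with the ptr-8 strain higher for 7 members (12.3%) against 13.6% of all genes. On FPKM without the scaling these counts were 8 members lower (14.0% against 6.12%) and 6 higher, against 8.06% of all genes. At an unadjusted p under 0.05 the family had 22 members (38.6%) against 20.7% of all genes. Of these, 17 were lower (29.8% against 11.8%) and 5 higher (8.77% against 8.9%). The median log2 fold change was -0.26 over the 57 members and 0.01 over all tested genes. The 7 calls were not equally stable: ugt-18 and ugt-44 stayed below the threshold whichever library was omitted, and the other 5 each failed in 4 or 5 of those 6 fits.

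ugt-18 (WBGene00013900, chromosome V, 12820265 to 12822758, plus strand, 8 exons) had the deepest fall. Its scaled FPKM was 29.5, 24.9 and 55.8 in reference replicates 1 to 3 and 0.136, 0.469 and 0.225 in ptr-8 replicates 1 to 3. The ptr-8 libraries were all near 0, the reference libraries spread about a mean of 36.7 ± 16.7, and the mean of the ptr-8 strain was 0.755% of that. The highest upper bound of the authors' FPKM interval in the ptr-8 libraries was 0.651, and the lowest lower bound in the reference libraries was 23.3. The log2 fold change was -4.81 (SE 0.31, adjusted p = 0.00421). ugt-18 was 17th of 65 by level in the reference strain and 62nd in the ptr-8 strain.

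ugt-44 (WBGene00008486, chromosome IV, 10469763 to 10471890, plus strand, 4 exons) fell from a high level. It was at 64.998, 87.2 and 89.7 in the reference libraries and at 14.7, 16.98 and 13.8 in the ptr-8 libraries. All 3 ptr-8 libraries lay far below the lowest reference library. The mean went from 80.6 ± 13.6 to 15.2 ± 1.64, which is 18.8% of the reference (log2 fold change -2.33, SE 0.15, adjusted p = 0.00421). Its neighbour ugt-43 (WBGene00008485, 10464659 to 10467240), 2522 bp upstream on the same strand, was at 8.05, 6.09 and 7.94 and at 3.57, 2.91 and 3.27. ugt-43 thus held 44.2% of its reference mean, again without overlap of the strains (log2 fold change -0.97, SE 0.15, adjusted p = 0.0337).

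The other 2 falls were shallower. ugt-17 (WBGene00007422, chromosome V, 10102591 to 10104946, minus strand) was at 79.9, 70.9 and 73.2 in the reference libraries and at 46.8, 48.4 and 47.7 in the ptr-8 libraries (log2 fold change -0.64, SE 0.08, adjusted p = 0.0219). Replicates of this gene lay close together, with SDs of 4.71 and 0.818. ugt-31 (WBGene00021464, chromosome I, 2333326 to 2338688, plus strand) was at 16.7, 16.9 and 16.5 and at 7.12, 9.12 and 9.46 (log2 fold change -0.90, SE 0.12, adjusted p = 0.0272). The ptr-8 strain held 51.3% of the reference level of ugt-31.

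**Figure D2:**
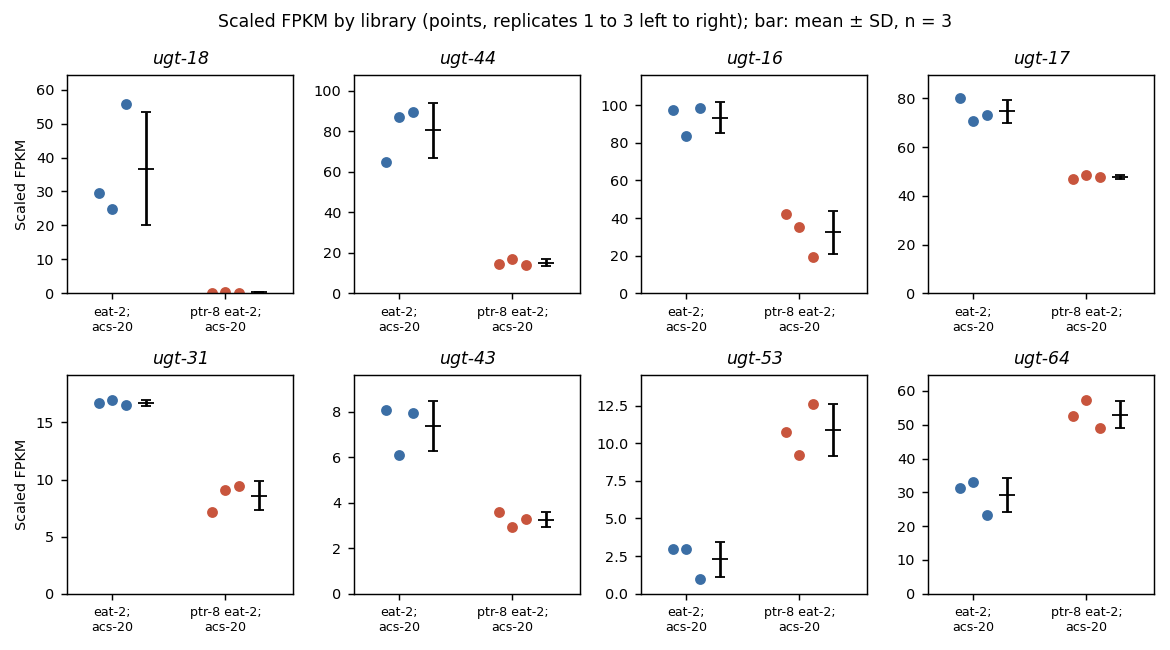
Scaled FPKM in each library (points) and mean ± SD (bars, n = 3) of the 7 called ugt genes and of ugt-16, each on a linear axis from 0. The strains do not overlap in any of the 8 panels, and ugt-53 and ugt-64 are the genes with higher values in the ptr-8 strain.

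The 2 members that rose differed in level. ugt-53 (WBGene00020182, chromosome V, 2849352 to 2852031, plus strand) was at 2.95, 2.95 and 0.957 in the reference libraries and at 10.8, 9.24 and 12.6 in the ptr-8 libraries. Its mean was 4.76 times as high in the ptr-8 strain (log2 fold change 1.92, SE 0.30, adjusted p = 0.0386). ugt-64 (WBGene00015577, chromosome V, 3503130 to 3506352, minus strand) was at 31.2, 32.9 and 23.4 and at 52.7, 57.2 and 49.1, a mean 1.82 times as high (log2 fold change 0.85, SE 0.15, adjusted p = 0.0482). Reference replicate 3 was the lowest library for both genes. Of the 4 adult-cuticle collagens listed as stage markers, that library was also lowest in col-7, col-19 and col-62 and highest in col-63. col-19 was at 422, 217 and 74.4 in the reference libraries and at 737, 591 and 851 in the ptr-8 libraries. In col-63, the most abundant of them, the libraries were at 876, 1099 and 1288 and at 860, 939 and 966. The summed level of the 4 (none at 0, none called) was 1400 to 1593 in the reference strain and 1771 to 2161 in the ptr-8 strain. At an unadjusted limma p under 0.05, 2 of the 4 were higher (col-19 and col-62), against 8.9% of all genes, and 0 were lower. The part of stage in the higher level of ugt-53 and ugt-64, or in the lower level of the 5 members that fell, was not tested. ugt-53 was still called without reference replicate 3, and ugt-64 was not. With each library left out in turn, ugt-53 was called in 2 of 6 fits and ugt-64 in 1 of 6, and these fits do not test stage.

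Of the members with the lowest p among those not called, ugt-16 came closest. ugt-16 (WBGene00013901, chromosome V, 12825026 to 12827432, plus strand) was at 97.5, 83.8 and 98.7 and at 42.1, 35.5 and 19.5 (log2 fold change -1.56, SE 0.28, adjusted p = 0.0513). ugt-52 was at 10.1 ± 3.03 and 3.94 ± 0.219 (-1.13, adjusted p = 0.0618), ugt-23 at 56.3 ± 2.77 and 41.9 ± 1.80 (-0.42, 0.0682) and ugt-14 at 2.496 ± 0.477 and 0.967 ± 0.1501 (-0.82, 0.0698). The libraries of the strains did not overlap for any of these 4, nor for ugt-8 (43.9 ± 12.6 and 21.4 ± 3.10, adjusted p = 0.0976) or ugt-22 (169.9 ± 13.3 and 230.2 ± 19.3, adjusted p = 0.102). ugt-22, the most abundant member, was thus higher in all 3 ptr-8 libraries without passing. ugt-30, named after its values were seen, was at 12.97, 7.19 and 5.88 and at 16.3, 16.6 and 17.5 (log2 fold change 0.95, adjusted p = 0.133), with the spread almost all in the reference strain.

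**Figure D3:**
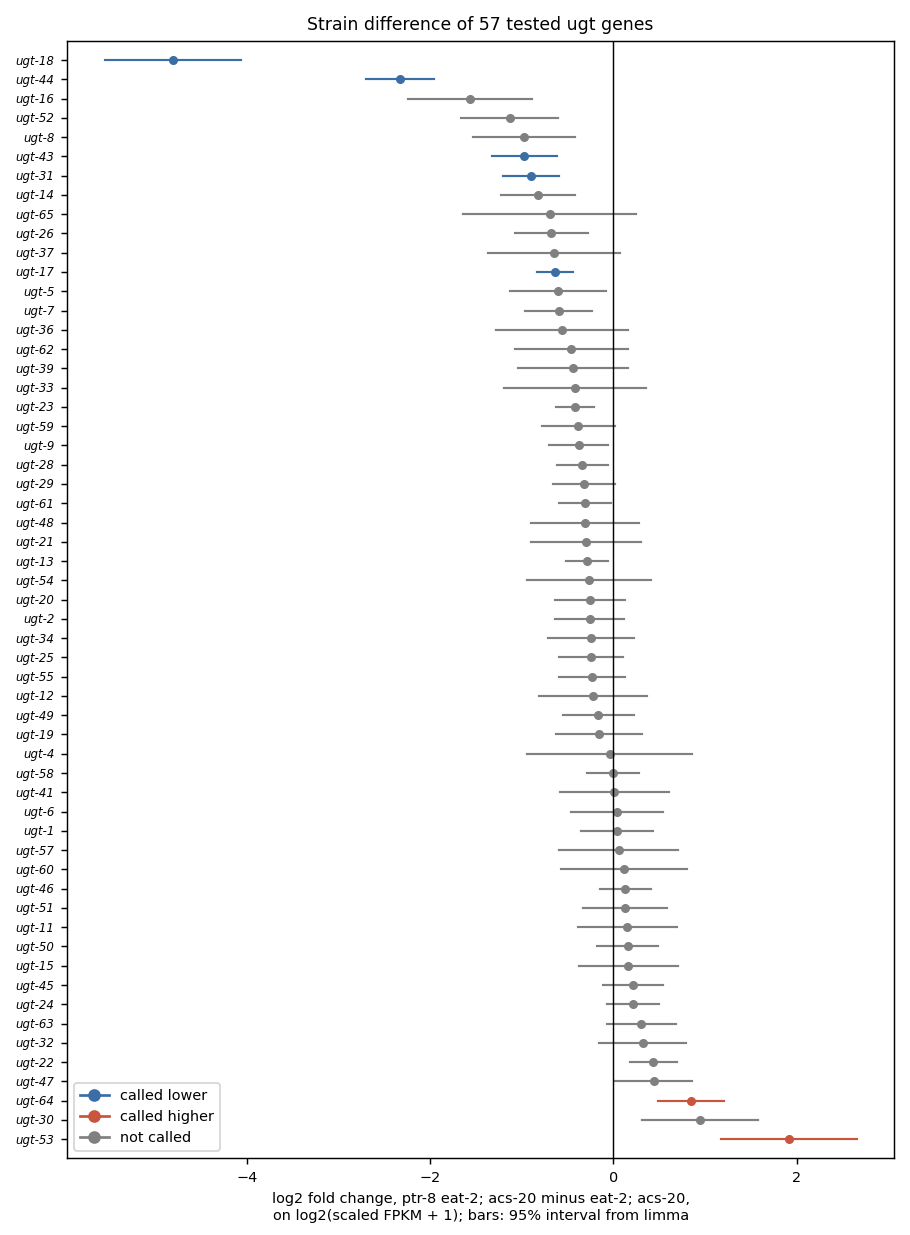
log2 fold change (ptr-8 strain minus reference strain, on log2 of scaled FPKM + 1) of the 57 tested ugt genes, with 95% intervals from limma as bars. Blue marks the 5 called lower, red the 2 called higher and grey the 50 not called. Of the 57 point estimates 38 (66.7%) lie below 0, against 49.1% of all tested genes.

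Several abundant members showed no call and narrow enough intervals to bound the difference. ugt-58, the member on chromosome II, where ptr-8 and eat-2 also lie, was at 35.6 ± 4.76 and 35.4 ± 2.09 (log2 fold change 0.00, 95% interval -0.29 to 0.28). ugt-50, which overlaps nhr-26 in the listed coordinates, was at 59.2 ± 9.82 and 65.7 ± 4.86 (interval -0.18 to 0.49). ugt-1 was at 51.8 ± 10.01 and 52.8 ± 4.995 (-0.35 to 0.43). For ugt-41 and ugt-62 the reference libraries were too far apart to say as much. ugt-41 was at 80.6, 43.7 and 47.8 in the reference strain and 49.8, 63.99 and 54.3 in the ptr-8 strain (interval -0.58 to 0.60). ugt-62 was at 174, 108 and 85.9 and at 80.6, 92.8 and 82.6 (interval -1.08 to 0.16), and reference replicate 1 was the highest library of both genes. Coefficients of variation over 30% were seen in 17 tested members in the reference strain and in 8 in the ptr-8 strain.

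The summed FPKM of the 65 members was 1784, 1646 and 1614 in the reference libraries and 1400, 1529 and 1350 in the ptr-8 libraries, which did not overlap on this scale. On FPKM without the scaling the sums were 1882, 1476 and 1524 against 1359, 2029 and 1173, so that the strains overlapped and ptr-8 replicate 2 was the highest library. After scaling, the ptr-8 mean was 84.8% of the reference mean (1681 ± 90.2 and 1426 ± 92.3). The 2-sided exact permutation test over libraries gave p = 0.1 on the scaled sums, the smallest value that 3 against 3 allows. That value follows from the absence of overlap, so the test adds no support. Of the mean difference of -254.75, the 5 members called lower made up -141 and those called higher added 32.4. Of single members, ugt-44 made up -65.5, ugt-16 -60.96, ugt-62 -37.2 and ugt-18 -36.4, while ugt-22 added 60.3 and ugt-47 31.1, neither of them called. Without the 7 called members the sums were 1434 ± 105 and 1288 ± 87.7.

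By position, 41 members lay on chromosome V, 12 on IV, 5 on I, 4 on X, 2 on III and 1 on II. When members at most 20 kb apart were joined, 36 members formed 11 clusters of 2 to 7 genes and 29 stood alone. Calls fell in both classes, 4 among 29 tested cluster members and 3 among 28 tested lone members. The share called among all tested genes was 2.29%, so a small cluster without a call is unremarkable. Some neighbours within clusters were packed closely, with 54 bp between ugt-5 and ugt-4 and an overlap of ugt-40 and ugt-37 on the same strand. Members of such clusters are often similar in sequence, and how the authors assigned reads that match several genes is not stated in the labels or headers, so the split of reads between neighbours is uncertain.

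Responses differed in size between some neighbours, which was not tested as a difference. In the cluster of ugt-18, ugt-16 and ugt-15 on chromosome V (12820265 to 12830109, all on the plus strand), ugt-18 fell to near 0 and ugt-16 was at 34.7% of the reference level without passing. ugt-15, 346 bp beyond ugt-16, was low in both strains, at 0.976 ± 0.222 and 1.25 ± 0.558 (log2 fold change 0.17, 95% interval -0.37 to 0.70). The next cluster to the left, ugt-5, ugt-4, ugt-6 and ugt-3 on the minus strand, ended 20071 bp before ugt-18. None of its 3 tested members was called, against 2.29% of all tested genes (log2 fold changes -0.60 to 0.04). The gene next to ugt-18 on its left, ZC443.4, with 719 bp between them, was at 8.81 ± 0.443 and 8.15 ± 0.0661 and was not called (adjusted p = 0.580).

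The pair ugt-43 and ugt-44 was the cluster with more than 1 call, and both fell. The pair ugt-47 and ugt-17, 3996 bp apart on the minus strand of chromosome V (10096305 to 10104946), pointed in opposite directions. ugt-17 fell, while ugt-47 was at 109, 96.1 and 69.9 in the reference libraries and at 124, 130 and 114.3 in the ptr-8 libraries without passing (log2 fold change 0.44, SE 0.17, adjusted p = 0.226). The reads of ugt-47 may include some of srd-49, which overlaps it in the files' coordinates. srd-49 itself was listed at only 0.449 ± 0.127 in the reference strain and 0.230 ± 0.145 in the ptr-8 strain. The largest cluster, 7 genes from ugt-12 to ugt-13 on chromosome V (4887173 to 4911458), had no call among 6 tested members, against 2.29% of all tested genes. In 4 of these 6 (ugt-8, ugt-9, ugt-13 and ugt-14) every ptr-8 library was below every reference library, a separation seen in 31.6% of the tested family and 14.1% of all genes. All 4 lie on the plus strand, and ugt-11 and ugt-12, on the minus strand, overlapped between strains. The plus-strand members of this cluster were picked out after their values were seen. The 6-gene cluster from ugt-40 to ugt-36 (7139483 to 7169205) had no call and no separation of the strains among its 4 tested members.

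**Figure D4:**
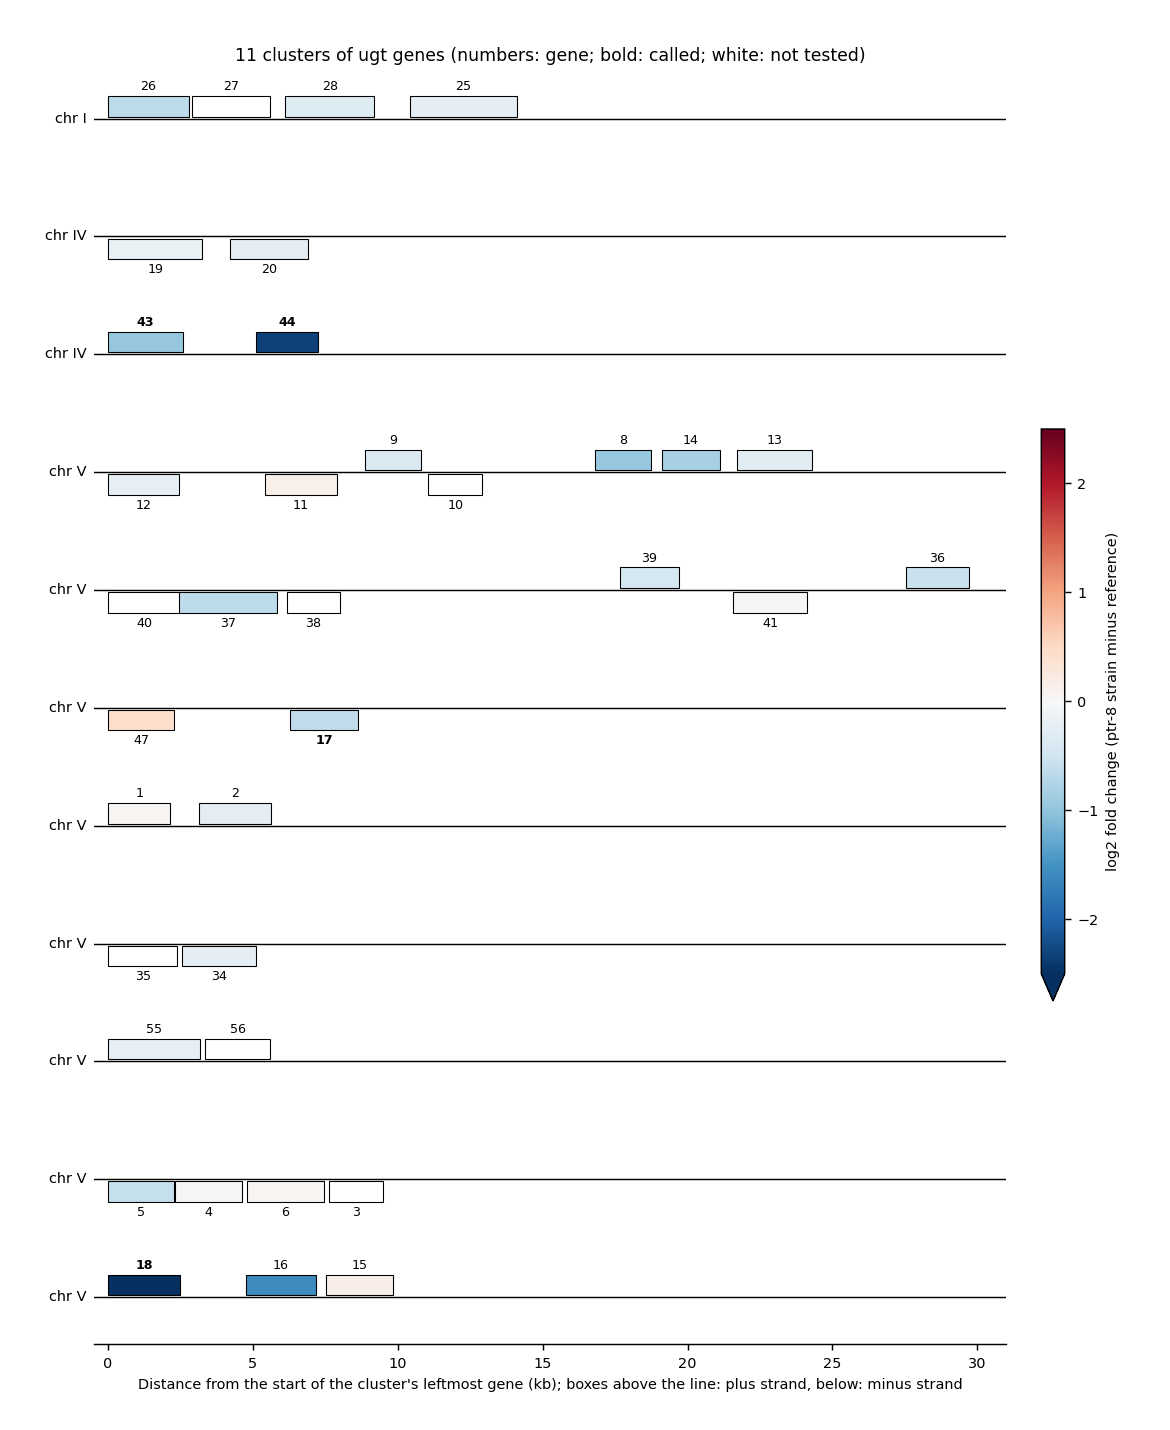
The 11 clusters of ugt genes drawn to scale, with distance in kb from the leftmost gene of each cluster, plus-strand genes above and minus-strand genes below each line, and colour for the log2 fold change (colours end at -2.5, below which ugt-18 lies at -4.81). Numbers are the ugt gene numbers, in bold for the 4 called cluster members (ugt-43, ugt-44, ugt-17 and ugt-18), and white boxes are the 7 cluster members that were not tested.

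Within 10 kb of the 7 called members and ugt-16, 0 of 14 tested genes outside the family were called by limma against 2.29% of all genes. ugt-53 and ugt-64 had no tested neighbour. Of the 14, 3 had an unadjusted p under 0.05, all lower, against 20.7% of all genes in either direction and 11.8% lower. These 3 are named here after their values were seen. C08B6.11, 2842 bp from ugt-17, was at 10.7 ± 0.423 and 7.48 ± 0.765 (limma adjusted p = 0.0973). C08B6.3, 4451 bp from ugt-17, was at 22.7 ± 0.701 and 18.4 ± 0.527 (adjusted p = 0.138). ZC443.3, 6142 bp from ugt-18, was at 43.8 ± 10.3 and 27.9 ± 5.22 (limma adjusted p = 0.190). The carboxypeptidase gene egl-21, 6551 bp from ugt-44, was at 57.3 ± 8.11 and 59.75 ± 2.55.

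In the lists of genes that supply, export or regulate in the same pathway no gene was called, against 2.29% of all genes. Of 9 genes of UDP-sugar supply, 0 were called by limma and 1 had an unadjusted p under 0.05, against 20.7% of all genes at that level. This was sqv-1, which converts UDP-glucuronic acid to UDP-xylose, at 23.9 ± 4.96 and 36.1 ± 3.17 (adjusted p = 0.140). sqv-4, the UDP-glucose dehydrogenase that makes UDP-glucuronic acid, was at 55.3, 73.8 and 63.8 and at 61.0, 69.4 and 75.6. Of 8 mrp genes, which encode ABC transporters of the class that exports conjugates, 0 were called and 0 had an unadjusted p under 0.05 (median log2 fold change 0.14). Of 20 regulators of detoxification, limma called 0, and 4 had an unadjusted p under 0.05. The lowest p among them were those of the nuclear hormone receptor genes nhr-176 (20.8 ± 1.66 and 14.6 ± 0.698, adjusted p = 0.0729) and nhr-8 (25.1 ± 2.13 and 17.7 ± 1.13, adjusted p = 0.0826). skn-1, a transcription factor gene of the oxidative and xenobiotic stress response, had a log2 fold change of 0.00 (adjusted p = 0.995).

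Other conjugation enzymes were tested in 13 of 15 listed genes, and limma called 0, with 2 at an unadjusted p under 0.05. Of these comt-2, of the catechol-O-methyltransferase family, was at 5.13, 6.54 and 6.42 and at 1.54, 3.12 and 1.64, which did not overlap (log2 fold change -1.21, adjusted p = 0.0562). In the related families, limma called 0 of 58 tested cyp genes, the cytochromes P450 of the preceding oxidation step, with a median log2 fold change of -0.25. It called 1 of 36 tested gst genes (2.78%), the glutathione S-transferases, with a median of -0.11. The share called among all tested genes was 2.29%. The log2 fold change was below 0 for 41 of the cyp genes and 25 of the gst genes, beside 38 of the 57 ugt genes. The list of other conjugation enzymes and the gst family share gst-1, gst-4, gst-7, gst-10 and gst-38. The number of calls was not tested between families.

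**Figure D5:**
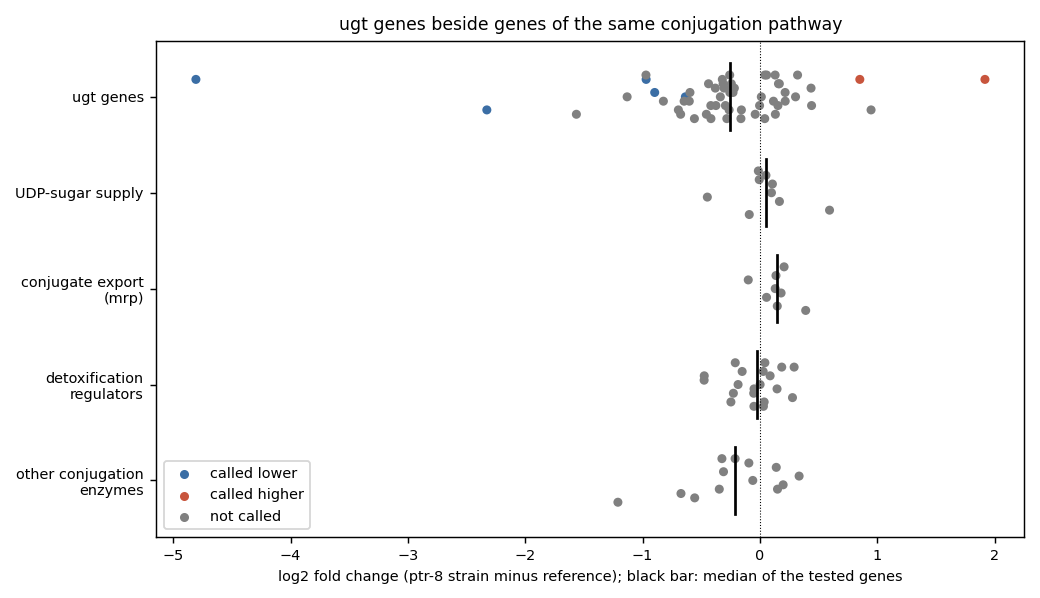
log2 fold change (ptr-8 strain minus reference strain) of the tested ugt genes and of 4 lists of genes around them in the conjugation pathway, 1 point per gene with the median as a black bar. The 7 coloured points, 5 lower and 2 higher, are all ugt genes. In the 4 lists no gene was called, against 2.29% of all tested genes. comt-2 came closest to a call there (limma adjusted p = 0.0562). The medians run from -0.26 for ugt genes to 0.14 for mrp genes.

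In whole worms fewer cells of a type and less RNA per cell cannot be told apart. Of 8 intestine markers, 7 were found by name (opt-2 was not), none was at 0 and none was called by limma. Among the 7, elt-2 and elt-7 are also counted with the regulators of detoxification. At an unadjusted p under 0.05, 2 of the 7 were lower and 1 higher, against 11.8% and 8.9% of all genes. The summed level of the 7 was 1414 to 1734 in the reference strain and 1325 to 1484 in the ptr-8 strain, so these ranges overlapped. Of the 7 markers act-5, the actin of intestinal microvilli, was at 706, 895 and 986 and at 586, 734 and 597, which overlapped. Lower without overlap were elt-7 (44.8 ± 1.77 and 37.7 ± 3.61) and vha-6 (220.4 ± 18.8 and 195.7 ± 9.80). The means of pho-1 and elt-2 were lower with overlap. ges-1, a gut esterase gene, went the other way without overlap, at 35.1, 38.4 and 40.5 and at 42.3, 52.3 and 44.6. The mean of ifb-2 was also higher, with overlap. The part of intestinal content in the lower ugt levels was not tested.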

How the data were processed

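RNA of whole C. elegans (2 strains, 3 libraries each) was analysed from the deposited tables, 1 per library. Per the file headers, the authors deposited FPKM per gene, its interval bounds and a quantification status. Tools listed in the submitters' processing notes, with no role given, are TopHat2, HTSeq, DESeq2 and FastQC 0.11.5. Neither genome build nor strandedness is stated there, so reads of overlapping genes cannot be told apart. Depth is unknown; the median half-width of the authors' interval over tested ugt genes was 7.47% to 13.9% of the level per library, and limits on the number of fragments were not computed. All 65 members matched the Ensembl 115 annotation of WBcel235 by identifier, 61 of them within 200 bp at both ends. Positions are those of the files, raised by 1 at the start, and strands and exons are from that annotation. The name table gives 2 more genes a ugt symbol, which the tables name otherwise; they are not members.

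FPKM was divided by a factor per library, the trimmed mean of log ratios to the mean of all libraries (trimming at both ends 30% by ratio and 5% by level). Loci under 200 bp (22932) and 10 genes with a failed status were left out, and genes needed a scaled FPKM of 1 in 3 libraries. limma 3.58.1 (R 4.3.3, intensity trend) was fitted to log2(scaled FPKM + 1) with strain as the only term and all 6 libraries, and was checked on simulated data. Clusters joined members at most 20 kb apart. The members and lists were chosen with earlier results of these data known. Named with values were called members, the 10 of highest level, the 6 of lowest p among the rest, members of clusters with a call, and list genes that were called or had the lowest p; other members were named after their values were seen. Motifs and protein identity were planned but not analysed here. Alternatives were median-of-ratios, upper-quartile and no scaling, no filter or one at 0.1, a pseudocount of 0.1, a replicate block, each library left out in turn, and cluster gaps of 10 and 50 kb.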

Additional observations from a re-analysis of the deposited data

How the results depend on the processing

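ugt-18 and ugt-44 were called under all 13 alternatives (log2 fold changes -6.62 to -4.48 and -2.47 to -2.22), and no named member that was called changed sign. The count of 7 called members (5 lower, 2 higher) was 7 with median-of-ratios and upper-quartile scaling. It was 4 (3 lower, 1 higher) on FPKM as deposited, where the median of all genes moved to 0.10 and that of the 57 members to -0.16; ugt-16 was called there and ugt-17, ugt-31, ugt-43 and ugt-64 were not. It was 4 (0 higher) with no filter, 6 (1 higher) with a filter at 0.1 and 5 (0 higher) with a pseudocount of 0.1. With 1 library left out, and the genes tested kept, it ran from 2 to 10 members (2 to 7 lower, 0 to 3 higher), and over all genes from 78 to 767 against 348. The count was 10 without eat-2; acs-20 replicate 1, 3 without its replicate 2 or 3, and 2, 2 and 3 without ptr-8 replicates 1, 2 and 3. ugt-17, ugt-31, ugt-43 and ugt-64 were called in 1 of these 6 fits, that without eat-2; acs-20 replicate 1. ugt-53 was called in that fit and without eat-2; acs-20 replicate 3. Over all alternatives the adjusted p reached 0.496 for ugt-17, 0.220 for ugt-31, 0.153 for ugt-43, 0.159 for ugt-53 and 0.1501 for ugt-64. Some genes gained a call in such fits: ugt-8, ugt-26 and ugt-30 without eat-2; acs-20 replicate 1, ugt-52 without its replicate 2 and ugt-16 without ptr-8 replicate 3. The cause of these shifts was not tested. With the replicate block 2 members were called (2 lower, 0 higher), and 160 of all genes. Correlations of deviations between same-numbered libraries were 0.249, 0.0471 and 0.0346, and not every library correlated best with its own number. The labels do not say whether the numbers pair the samples, and so few correlations cannot decide it. Clusters numbered 11 at gaps of 10 and 50 kb, with 36 and 39 members, but at 50 kb they were not the same clusters. There the cluster of ugt-18 joined that of ugt-5 to ugt-3 (gap of 20071 bp), and ugt-49 joined ugt-1 and ugt-2 (21415 bp). ugt-42 and ugt-29 became a pair (46781 bp). The family sum and the counts without overlap were repeated after the data were seen. The sum differed by -254.75 between strains as scaled, by -253.7 and -242 with the other scalings, by -107 on FPKM as deposited, and by -292 to -201 with 1 library left out. The 8 members under the filter entered the fit with no filter, and none was called there.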

Other observations

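The gene name table gives the symbols ugt-66 and ugt-67 to 2 further genes, which the deposited tables list as C23G10.6 and H23N18.4. C23G10.6 (ugt-66, chromosome III) was at 22.5, 25.8 and 32.9 in the reference libraries and at 28.8, 28.5 and 26.8 in the ptr-8 libraries, which overlapped (log2 fold change 0.06, limma adjusted p = 0.839). H23N18.4 (ugt-67) lies on chromosome V in the largest cluster, before ugt-8, and stayed between 0.127 and 0.655 in all 6 libraries.

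The marker lists of other tissues held no called gene. At an unadjusted limma p under 0.05, 2 of 2 oocyte markers and 1 of 3 germline markers were higher, against 8.9% of all genes. Of 2 excretory and gland cell markers 1 was lower, against 11.8% of all genes. No sperm, epidermis, body muscle, pharynx or neuron marker reached that level. The summed level of 2 oocyte markers was 28.2 to 46.7 in the reference strain and 60.5 to 82.9 in the ptr-8 strain. That of 3 germline markers was 434 to 499.98 and 534 to 581, and neither of these sums overlapped between strains. That of 3 sperm markers was 1005.5 to 2183 and 1146 to 2188, with overlap. Epidermis markers summed to 2871 to 3831 and 2362 to 3142, body muscle markers to 586 to 656 and 582 to 691, pharynx markers to 23.04 to 47.2 and 31.2 to 45.8, neuron markers to 365 to 411 and 316 to 403, and excretory and gland cell markers to 108 to 144 and 110.5 to 117. The part of tissue content or stage in the ugt levels was not tested.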
